A study of Mus musculus with 16 samples.

Results

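The Bcl2 family genes described here are the BH3-only gene Bcl2l11 and 9 further members, Bmf, Bid, Bbc3, Pmaip1, Mcl1, Bcl2l1, Bcl2, Bax and Bak1. They are 10 of the 25006 genes in the count table, and all 10 passed the filter on low counts that left 13180 genes for testing. Bcl2l11 was chosen by its antibiotic and interaction fold changes in these same libraries, which are among the strongest of all genes, so its values are given as a description with no test. The other members were taken for their place in the family, but with earlier results of these same data known. Their tests stand below with that limit.

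Poly(A) RNA of whole liver from C57BL/6 mice, an inbred laboratory strain, was counted in 16 libraries. In all groups a slurry was given once by oral gavage and the liver was taken 4 h later. The groups, with 4 libraries each, were fast food slurry with antibiotic drinking water, chow slurry with antibiotic drinking water, fast food slurry with control drinking water, and chow slurry with control drinking water. They are called fast food antibiotic, chow antibiotic, fast food control and chow control here. The sources used here do not name the antibiotics, their doses or the age and sex of the mice. Nor do the labels state that every replicate is its own mouse, so p-values may measure only the spread between samples.

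Bcl2 family proteins decide whether the outer membrane of mitochondria stays closed. BH3-only proteins (Bim from Bcl2l11, Bmf, Bid, Puma from Bbc3 and Noxa from Pmaip1) are induced or activated by stress and bind the pro-survival proteins (Mcl1, Bcl-xL from Bcl2l1, and Bcl2). Once these are occupied, Bax and Bak1 form pores, cytochrome c leaves the mitochondria and caspases are activated. In mouse liver, Mcl1 and Bcl-xL are needed for hepatocytes to survive, and Bid carries the signal of death receptors to the mitochondria. Bcl2l11 is a known target of FOXO transcription factors, which insulin and growth factor signalling keeps out of the nucleus.

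Bcl2l11 (ENSMUSG00000027381) lies on the plus strand at chr2:128126038-128162547 in GRCm38. The sequence just upstream of its annotated start is shown because this gene carries the main result and the FOXO family is a well known regulator of it. RefSeq's window of 250 bases before the start (GRCm38.p6, chr2:128125788-128126037, plus strand) is 72% G and C and overlaps no annotated exon. Capitals mark the letters GTAAACA, the core that FOXO proteins bind.

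Bcl2l11 upstream: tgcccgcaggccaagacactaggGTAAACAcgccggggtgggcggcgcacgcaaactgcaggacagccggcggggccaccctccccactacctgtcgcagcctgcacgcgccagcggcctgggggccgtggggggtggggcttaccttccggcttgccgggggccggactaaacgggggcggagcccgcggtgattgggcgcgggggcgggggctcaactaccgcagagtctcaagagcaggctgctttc
Bbc3 upstream stretch: ctggcgggttTGTTTACaaacaatggg

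The match in Bcl2l11 begins at position -227 from the start. The Bbc3 stretch (chr7:16310084-16310110, plus strand) holds the same letters on the other strand, TGTTTAC, at position -167 from an annotated Bbc3 start. That stretch lies inside the annotated Bbc3 gene (chr7:16308393-16318205), so it is upstream of an inner start and not of the whole gene. RefSeq's table held 16 windows of 300 bases for 9 of the 10 members, and 2 of these 16 had GTAAACA or TGTTTAC, against 3.65% of all 32851 windows. The E-box CACGTG, which reads the same on both strands, stood in 2 of the 16 windows, in Bax and Bbc3, against 7.15% of all windows. The cyclic AMP response element TGACGTCA, also the same on both strands, was in none of the 16 windows and in 1.79% of all windows. Matches of different motifs did not overlap, and a match is only a match of letters.

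Total counts ran from 8954378 to 18954655 per library, and no 2 libraries of the same group agreed within sampling noise. The summed counts of the genes Lars2, Mir6236, Gm20594 and Mir6240 are called ribosomal RNA-like reads here. Ribosomal RNA itself was not measured. These reads took 0.12% to 0.587% of the counts in 9 libraries, the low-share libraries, and 2.45% to 8.42% in the other 7. The low-share libraries were 1 of fast food antibiotic (replicate 3), 2 of chow antibiotic (1 and 3), 4 of fast food control and 2 of chow control (3 and 4). Fast food antibiotic replicate 2, chow antibiotic replicate 4 and chow control replicate 2 were marked as libraries with high transcripts of the acute phase response. No fast food control library was so marked, and the levels behind the mark are not given here. Hepatocyte markers were abundant in every library, with 9 of 9 detected and summed levels from 88500 to 224000 CPM (library-size scaled counts with TMM factors).

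Bcl2l11 was high in the livers of antibiotic-treated mice given chow and low in the other 3 groups. Its level was 14.2, 13.6, 17.6 and 16.7 CPM in fast food antibiotic libraries and 33.8, 42.8, 49.5 and 55.0 CPM in chow antibiotic libraries. It was 10.8, 11.3, 10.8 and 10.5 CPM in fast food control libraries and 10.7, 11.9, 11.5 and 9.83 CPM in chow control libraries. Every chow antibiotic library stood above every other library, the fast food antibiotic libraries stood above all 8 control-water libraries, and the control-water groups overlapped. These levels rest on 100 to 863 counts of the gene per library. The group means were 15.5 ± 1.94 CPM in fast food antibiotic, 45.3 ± 9.1 CPM in chow antibiotic, 10.8 ± 0.355 CPM in fast food control and 11 ± 0.906 CPM in chow control livers (SD, n = 4 each). Ordered by level, chow antibiotic was followed by fast food antibiotic and then by the control-water groups, whose means differed by less than the spread between libraries.

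**Figure D1:**
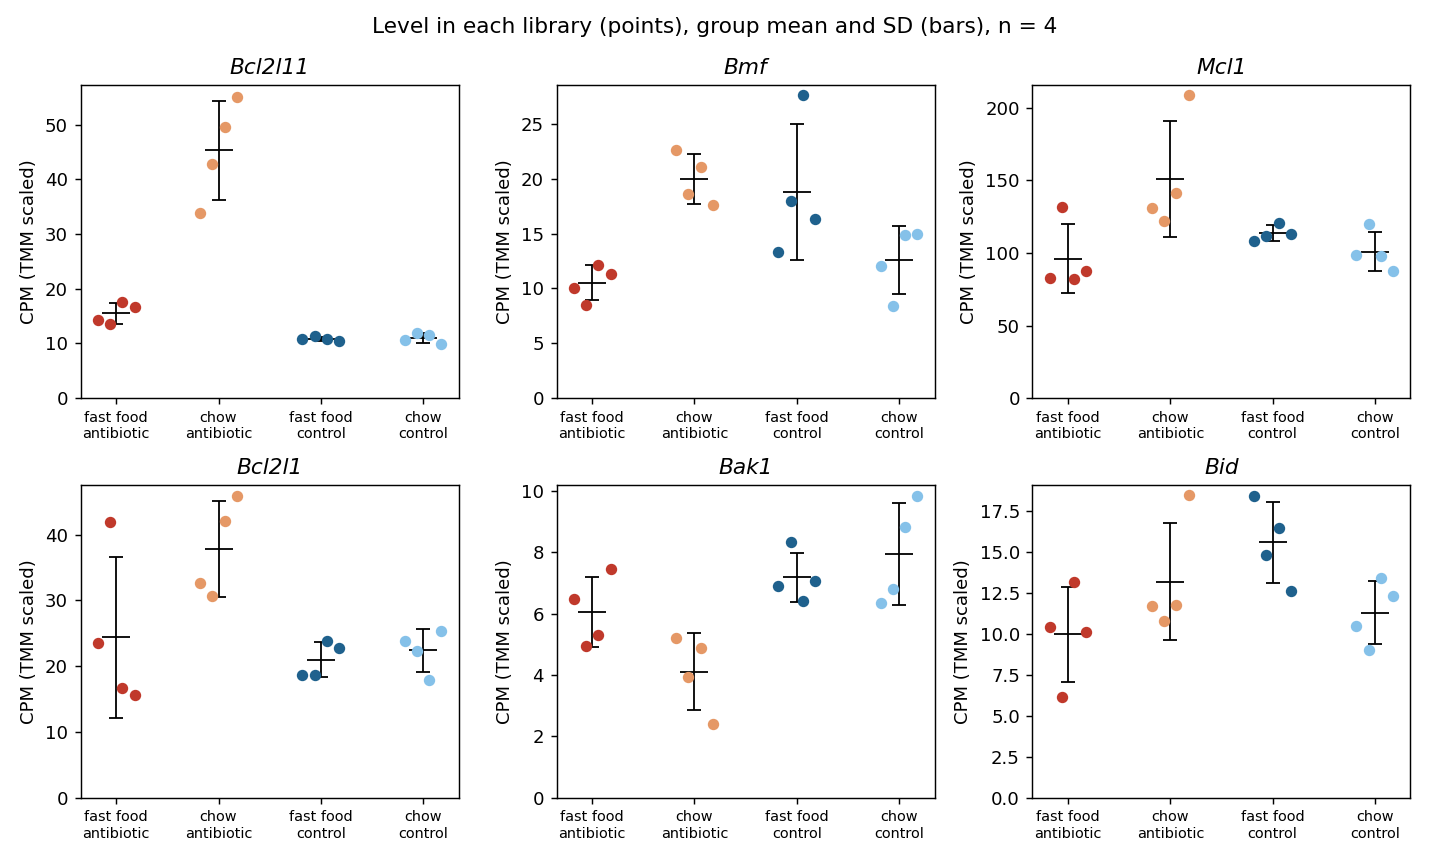
Level of 6 Bcl2 family genes (CPM, linear axis from 0) in each library (points) of the 4 groups, with the group mean and SD (bars, n = 4). Bcl2l11 reached 33.8 to 55.0 CPM in chow antibiotic livers and at most 17.6 CPM in any other library. The group mean of Bmf was lowest in fast food antibiotic livers and that of Bak1 in chow antibiotic livers, though single libraries overlapped with other groups.

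With chow, Bcl2l11 was 4.11-fold higher with antibiotic than with control water, a log2 fold change of 2.04 ± 0.14 (SE). It ranked 1 of 13180 genes when these were ordered by the p-value of the F test, the order used for all ranks here. With fast food, the antibiotic difference was 0.52 ± 0.14 on the log2 scale, rank 515. Between meals, Bcl2l11 fell by 1.54 ± 0.14 after fast food against chow in antibiotic water, rank 1, and differed by -0.02 ± 0.14 in control water, rank 12111. The interaction, the meal difference in antibiotic water minus that in control water, was -1.52 ± 0.19, rank 2. The choice of the gene used these contrasts, so the ranks describe the choice and carry no test. The contrasts also share libraries: the chow antibiotic group enters the first, the third and the interaction.

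These differences kept their size when single libraries were left out. Over the 16 fits that each left out 1 library, the antibiotic difference ran from 1.96 to 2.18 with chow and from 0.45 to 0.57 with fast food. The meal difference ran from -1.68 to -1.46 in antibiotic water and from -0.05 to 0.02 in control water. Without these 3 acute phase libraries (fast food antibiotic 2, chow antibiotic 4, chow control 2), the antibiotic difference with chow was 2.00 and the meal difference in antibiotic water -1.40. Among libraries with a low ribosomal RNA-like share, the antibiotic difference with chow was 1.96. It was 2.12 among those with a high share, where the meal difference in antibiotic water was -1.74. The antibiotic difference with fast food has no such within-share value, because all fast food control libraries have a low share and only 1 fast food antibiotic library does.

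Some markers of liver cell types also differed between groups. In chow antibiotic against chow control livers, 7 of 9 hepatocyte markers were called higher, with summed levels of 163000 to 224000 CPM against 95400 to 129000 CPM. Of 8 Kupffer cell and macrophage markers 6 were called lower, with sums of 148 to 191 CPM against 230 to 665 CPM. All 3 tested B cell markers of 6 were called lower, with sums of 0.438 to 0.944 CPM against 2.61 to 4.02 CPM. Also called lower were 1 of 7 sinusoidal endothelial, 2 of 7 stellate cell and 1 of 5 tested cholangiocyte markers. Over all genes tested, 10.6% were called higher and 13.2% lower in this comparison. In fast food antibiotic against chow antibiotic livers, 6 of 9 hepatocyte markers were called lower, with sums of 88500 to 151000 CPM in fast food antibiotic livers, 1 of 4 tested neutrophil markers was called lower, and 1 of 7 sinusoidal endothelial and 1 of 7 stellate cell markers were called higher. In fast food antibiotic against fast food control livers, 4 of 8 Kupffer cell and macrophage markers were called lower (145 to 230 CPM against 278 to 377 CPM), as were 1 of 3 tested B cell (sums of 0.503 to 1.79 CPM against 2.14 to 4.11 CPM) and 1 of 5 tested cholangiocyte markers. For the interaction 3 of 9 hepatocyte markers had a negative and 1 of 7 sinusoidal endothelial markers a positive call. Over all genes, 13.7% were called for the meal in antibiotic water, 5.99% for antibiotic with fast food and 3.94% for the interaction. A single call in such a short list cannot be told from the share over all genes. No marker of these types was called for the meal in control water, and neither of the tested T and NK cell markers in any contrast. The summed neutrophil markers were at 86.5 CPM in chow antibiotic replicate 4 and at most 13.3 CPM in all control-water and fast food antibiotic libraries. No marker was at 0 in all libraries, though Ly6g and Ngp of the neutrophil list were at 0 in 9 libraries each and Camp in 12. The part of these shifts in the results of the Bcl2 family was not tested, and in whole-liver RNA fewer cells of a type and less RNA per cell cannot be told apart.

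With chow, antibiotic water moved 4 of the 9 other family members, in both directions, and 5 were not called. The higher calls given next were each lost in some fits that left out 1 library, and only the Bak1 call held in all. Without chow control replicate 1 the count called was 1. Of the 9 members other than Bcl2l11, 3 were called higher (Bmf, Mcl1 and Bcl2l1) and 1 lower (Bak1) in chow antibiotic against chow control livers (edgeR, adjusted p under 0.05). Over all genes tested, 23.8% were called in this comparison, 10.6% higher and 13.2% lower. The median log2 fold change was 0.2 over the 9 members and -0.01 over all genes. The 4 called members were also the ones whose groups did not overlap, which held for 24.8% of all genes.

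Bmf (chr2:118528757-118549687, minus strand) encodes a BH3-only protein released from the cytoskeleton under stress. It had 10, 8.47, 12.1 and 11.3 CPM in fast food antibiotic libraries and 22.6, 18.6, 21.1 and 17.6 CPM in chow antibiotic libraries. It had 13.3, 18, 27.6 and 16.3 CPM in fast food control libraries and 12.0, 8.38, 14.9 and 15 CPM in chow control libraries. The antibiotic groups did not overlap with each other, and the fast food control group was the most spread. With chow Bmf rose with antibiotic (log2 fold change 0.67 ± 0.21, adjusted p = 0.0307). With fast food it fell with antibiotic (-0.84 ± 0.21, adjusted p = 0.034). In antibiotic water it was lower after fast food than after chow (-0.93 ± 0.21, adjusted p = 0.0122). In control water the meal difference was 0.57 ± 0.21 and did not pass (adjusted p = 0.282). The interaction was -1.5 ± 0.3 (adjusted p = 0.0136), a test of the difference itself.

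For Bmf the meal difference in antibiotic water and the interaction kept their calls in all 16 fits that left out 1 library, with highest adjusted p of 0.0327 and 0.0347. The antibiotic call with chow was lost without chow control replicate 1 (adjusted p = 0.069) or 2 (log2 fold change 0.51, adjusted p = 0.0788) and without chow antibiotic replicate 1 (0.0678) or 3 (0.0645). The antibiotic call with fast food was lost without fast food control replicate 2 (0.0728) or 3 (-0.59, adjusted p = 0.114) and without fast food antibiotic replicate 1 (0.062), 2 (0.0778) or 4 (0.0683). With the ribosomal RNA-like share as a covariate the fast food difference was -0.55 (adjusted p = 0.392) and the interaction -1.26 (adjusted p = 0.0533), so neither was called.

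Among pro-survival members, Mcl1 and Bcl2l1 were higher with antibiotic in chow-fed livers. Mcl1 (chr3:95658788-95663176, plus strand) encodes a short-lived protein, and its transcript was the most abundant per length of the members described here. It had 82.9, 132, 82.4 and 87.3 CPM in fast food antibiotic libraries and 131, 122, 141 and 209 CPM in chow antibiotic libraries. It had 108, 112, 121 and 113 CPM in fast food control libraries and 98.3, 120, 98.2 and 87.8 CPM in chow control libraries. With chow it rose with antibiotic (0.57 ± 0.17, adjusted p = 0.0244), and in antibiotic water it was lower after fast food than after chow (-0.65 ± 0.17, adjusted p = 0.0237). The meal groups overlapped at a single library, fast food antibiotic replicate 2.

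The Mcl1 call with chow was lost without chow control replicate 1 (adjusted p = 0.0574), 3 (0.0584) or 4 (0.0596) or without chow antibiotic replicate 4 (0.067). The Mcl1 meal call in antibiotic water was lost without fast food antibiotic replicate 1 (0.0668), 3 (0.0731) or 4 (0.0744), without chow antibiotic replicate 4 (0.0534) and in the fit to the 2 groups compared (0.104). Its interaction was -0.82 ± 0.25 (adjusted p = 0.0681). The interaction was called with DESeq2 (-0.85, adjusted p = 0.0229) and with the split by ribosomal RNA-like share as a term (-1.02 ± 0.25, adjusted p = 0.0456). Without fast food antibiotic replicate 2, the library with the highest value of its group, the interaction was -1.02 (adjusted p = 0.00537). Without all 3 acute phase libraries it was -0.95 (adjusted p = 0.000316), and the antibiotic difference with fast food was then -0.46 (adjusted p = 0.0107) where with all libraries it was -0.25 (adjusted p = 0.393).

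Bcl2l1 (chr2:152780668-152831728, minus strand), the gene of Bcl-xL, had 23.5, 41.9, 16.7 and 15.6 CPM in fast food antibiotic libraries and 32.7, 30.7, 42.0 and 45.9 CPM in chow antibiotic libraries. It had 18.7, 18.6, 23.8 and 22.8 CPM in fast food control libraries and 23.8, 22.3, 17.9 and 25.4 CPM in chow control libraries. With chow it rose with antibiotic (0.76 ± 0.25, adjusted p = 0.0386), with all 4 chow antibiotic libraries above all 4 chow control libraries. The call was lost without chow control replicate 1 (0.0667), 2 (0.066) or 3 (0.109), without chow antibiotic replicate 3 (0.0857) or 4 (0.0817) and with no filter on low counts (0.0552). The meal difference in antibiotic water was -0.63 ± 0.25 (adjusted p = 0.103). Fast food antibiotic replicate 2 decided this value: without it the difference was -1.03 (adjusted p = 0.000767) and the interaction -0.95 (adjusted p = 0.0173), against -0.54 ± 0.35 (adjusted p = 0.409) with it. Without all 3 acute phase libraries they were -0.96 (adjusted p = 0.00132) and -0.88 (adjusted p = 0.025).

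Bcl2, the founding pro-survival member, was scarce, at 2.11 to 3.30 CPM in fast food antibiotic, 1.89 to 2.98 CPM in chow antibiotic, 2.14 to 2.90 CPM in fast food control and 2.72 to 3.17 CPM in chow control libraries. It was called in none of the 5 contrasts, where its log2 fold changes ran from -0.34 ± 0.21 (antibiotic with chow, adjusted p = 0.244) to 0.43 ± 0.29 (interaction, adjusted p = 0.423). All 4 groups overlapped.

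Of the pore formers, Bak1 moved and Bax did not pass any test. Bak1 (chr17:27019810-27029009, minus strand) had 6.47, 4.95, 5.31 and 7.45 CPM in fast food antibiotic libraries and 5.22, 3.94, 4.87 and 2.41 CPM in chow antibiotic libraries. It had 6.90, 8.32, 6.42 and 7.06 CPM in fast food control libraries and 6.33, 6.80, 8.82 and 9.83 CPM in chow control libraries. With chow it fell with antibiotic (-0.92 ± 0.21, adjusted p = 0.00555), without overlap of the groups. The call held in all 16 fits that left out 1 library, with a highest adjusted p of 0.0268. Within libraries of a high ribosomal RNA-like share the Bak1 difference was -1.0 (adjusted p = 0.188), in a fit that called 3 of 12339 genes. The meal difference in antibiotic water was 0.51 ± 0.22 (adjusted p = 0.126). It was called with the ribosomal RNA-like share as a covariate (0.66 ± 0.21, adjusted p = 0.0471).

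Bak1 shares 18.2% of its exon bases with Ggnbp1 on the opposite strand, and no source used here says whether counting used the strand, so reads of the pair cannot be told apart there. Bax had 4.74 to 7.75 CPM in fast food antibiotic, 6.08 to 10.2 CPM in chow antibiotic, 5.96 to 7.44 CPM in fast food control and 6.98 to 9 CPM in chow control libraries. Its log2 fold changes ran from -0.32 ± 0.19 to -0.04 ± 0.19 over the 5 contrasts, with adjusted p of 0.287 to 0.898. Bax shares 12.2% of its exon bases with the predicted gene Gm45808.

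The called members were also looked at within libraries of like ribosomal RNA-like share. With chow, the low-share libraries were chow antibiotic 1 and 3 against chow control 3 and 4. The high-share libraries were chow antibiotic 2 and 4 against chow control 1 and 2. Groups this small limit both fits, and the high-share fit called almost no genes of any kind. Among low-share libraries the antibiotic difference with chow was 0.54 ± 0.12 for Mcl1 (adjusted p = 0.00556), 0.78 ± 0.19 for Bcl2l1 (adjusted p = 0.0118) and -0.89 ± 0.19 for Bak1 (adjusted p = 0.0049), all called, and 0.54 ± 0.29 for Bmf (adjusted p = 0.208), not called. Among high-share libraries it was 0.61 ± 0.31 for Mcl1 (adjusted p = 0.333), 0.74 ± 0.43 for Bcl2l1 (adjusted p = 0.393) and 0.85 ± 0.25 for Bmf (adjusted p = 0.154). The meal difference in antibiotic water among high-share libraries was -0.89 ± 0.23 for Bmf (adjusted p = 0.176) and -0.73 ± 0.28 for Mcl1 (adjusted p = 0.245), and only 1 fast food antibiotic library has a low share.

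The other BH3-only members, Bid, Bbc3 and Pmaip1, were called in no contrast. Bid had 10.4, 6.17, 13.2 and 10.1 CPM in fast food antibiotic libraries and 18.4, 14.8, 16.5 and 12.6 CPM in fast food control libraries. The groups overlapped, and the antibiotic difference with fast food was -0.64 ± 0.21 (adjusted p = 0.0796). It was called with DESeq2 (-0.65, adjusted p = 0.0408) and without chow antibiotic replicate 4 (-0.66, adjusted p = 0.0426) or fast food antibiotic replicate 3 (-0.81, adjusted p = 0.0398). Bid had 11.7, 10.8, 11.8 and 18.5 CPM in chow antibiotic libraries and 10.5, 9, 13.4 and 12.3 CPM in chow control libraries (0.20 ± 0.22, adjusted p = 0.533). Bid shares 17.7% of its exon bases with Bcl2l13 on the opposite strand, a gene with 9626 counts over all libraries against 3174 for Bid.

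Bbc3, a p53 target, had 2.15 to 6.37 CPM in fast food antibiotic, 2.36 to 5.16 CPM in chow antibiotic, 2.46 to 5.33 CPM in fast food control and 1.24 to 5.28 CPM in chow control libraries. The ranges of all 4 groups overlapped, and the SE of its contrasts reached 0.58. Pmaip1, also a p53 target and a binder of Mcl1, had only 4 to 24 counts per library, or 0.287 to 0.67 CPM in fast food antibiotic, 0.35 to 1.42 CPM in chow antibiotic, 0.609 to 0.985 CPM in fast food control and 0.859 to 1.65 CPM in chow control livers. Its antibiotic difference with chow was -0.82 ± 0.40 (adjusted p = 0.143). Without chow antibiotic replicate 4, the highest of its group, it was -1.21 (adjusted p = 0.0275).

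**Figure D2:**
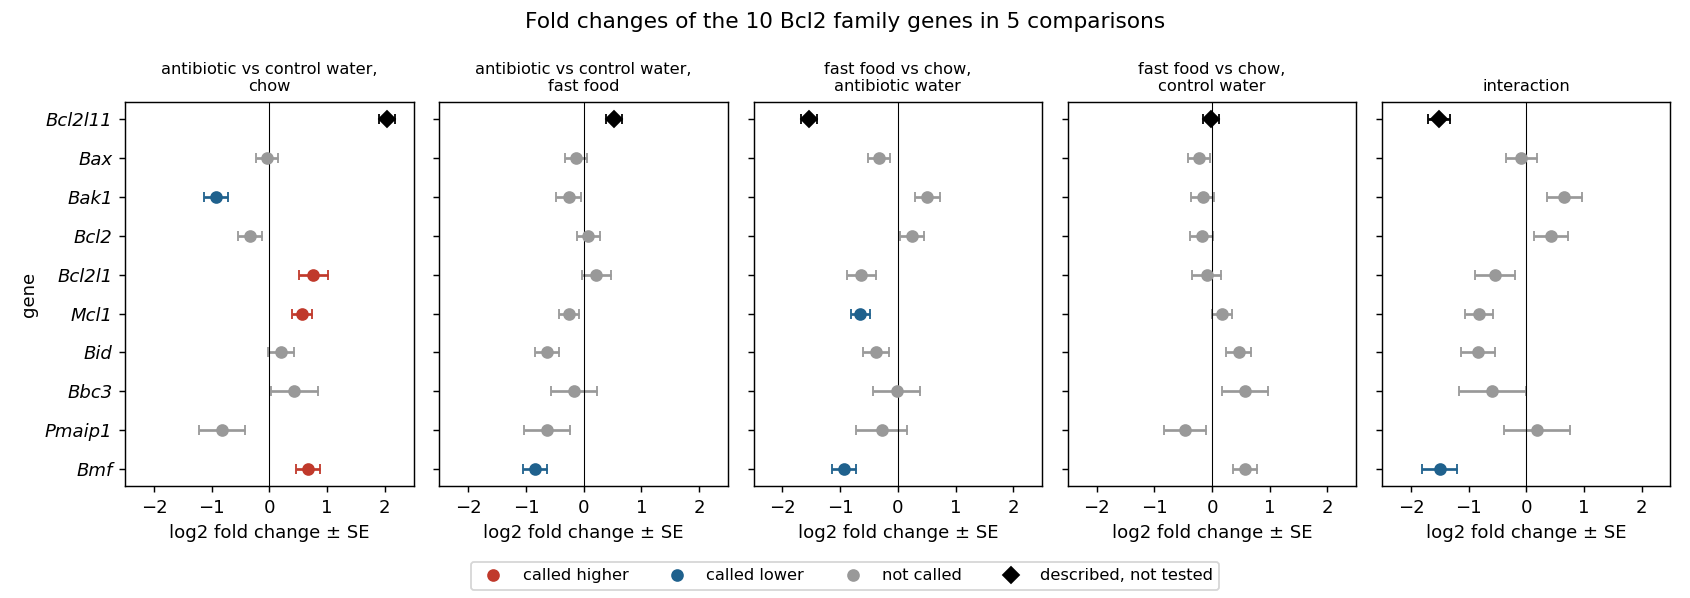
Log2 fold change (points) with its SE (bars) of the 10 genes in each of the 5 contrasts, on a common axis. Red and blue mark members called higher and lower over all genes tested, grey those not called, and black diamonds Bcl2l11, which was not tested. Bcl2l11 stands farthest to the right in the antibiotic contrast with chow (2.04) and farthest to the left in the meal contrast in antibiotic water (-1.54).

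The count of called members was smaller in the other contrasts. With fast food, antibiotic water moved 1 of the 9 members, Bmf, which was lower, where 5.99% of all genes were called and 2.22% were lower, and the median over the 9 was -0.25 against 0.02 over all genes. In antibiotic water, fast food against chow moved 2 of 9, Bmf and Mcl1, both lower, where 13.7% of all genes were called and 5.87% were lower. The median over the 9 members was -0.32 and over all genes 0.03. The interaction was called for 1 of 9, Bmf, with a negative value, where 3.94% of all genes were called and 1.58% had a negative value, with medians of -0.54 over the 9 members and 0.06 over all genes.

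In control water the meal moved none of the 9 members, where 0.577% of all genes were called. At an unadjusted p under 0.05 edgeR counted 2 of the 9, Bid (0.46 ± 0.21) and Bmf (0.57 ± 0.21), where 11.5% of all genes passed that level. DESeq2 also called none after adjustment. A median of -0.09 over the 9 members stood beside -0.02 over all genes.

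Levels of different members were compared per kilobase of exon, because the genes differ in length. The values are CPM per kilobase of union exon length. Mcl1 was the most abundant, at 28.1 ± 6.99 in fast food antibiotic, 44.1 ± 11.7 in chow antibiotic, 33.3 ± 1.59 in fast food control and 29.6 ± 4.02 in chow control livers (SD, n = 4 each). Bcl2l11 stood at 1.93 ± 0.242 in fast food antibiotic, 5.64 ± 1.13 in chow antibiotic, 1.35 ± 0.0442 in fast food control and 1.37 ± 0.113 in chow control livers. Bcl2 and Pmaip1 were the scarcest, both below 0.61 in every library.

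Among the 5 BH3-only members described here, Bcl2l11 was a larger part of the transcripts in chow antibiotic livers than elsewhere. Of the summed level of the 5 BH3-only members per length it made up 22.7% ± 3.87 in fast food antibiotic, 37.0% ± 4.65 in chow antibiotic, 11.8% ± 1.47 in fast food control and 16.4% ± 4.23 in chow control livers. Bcl2l11 itself was chosen for these levels, so its share is a description. The sum leaves out other BH3-only genes, such as Bik, so these are not shares of all BH3-only transcripts. With the longest transcript in place of the union of exons the shares were 26.8%, 42.5%, 14.3% and 19.6% in the same groups.

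The BH3-only sum was 8.73 ± 1.78 in fast food antibiotic, 15.2 ± 2.00 in chow antibiotic, 11.6 ± 1.60 in fast food control and 8.66 ± 1.67 in chow control livers, in CPM per kilobase. The sum of the 3 pro-survival members was 33.7 ± 9.55, 52.6 ± 13, 38.2 ± 2.11 and 34.8 ± 3.90 in the same order of groups. The 2 pore formers summed to 6.45 ± 0.918, 6.65 ± 0.969, 7.29 ± 0.296 and 8.32 ± 0.872. The BH3-only sum holds Bcl2l11, which was chosen for its level in chow antibiotic livers, so its order of groups is a description. Without Bcl2l11 the other 4 BH3-only members summed to 6.79 ± 1.63 in fast food antibiotic, 9.54 ± 1.22 in chow antibiotic, 10.2 ± 1.60 in fast food control and 7.30 ± 1.75 in chow control livers, and the chow antibiotic libraries (7.81 to 10.7) overlapped with the chow control libraries (5.31 to 9.18). The pro-survival sum of every chow antibiotic library stood above that of every chow control library (42.6 to 71.5 against 31.5 to 40.4). Most of that sum was Mcl1, on average 44.1 of 52.6 in chow antibiotic and 29.6 of 34.8 in chow control livers. Bcl2l1 had 8.25 against 4.88, and Bcl2 was lower, at 0.255 against 0.321. Of all genes, 24.8% did not overlap between these groups.

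**Figure D3:**
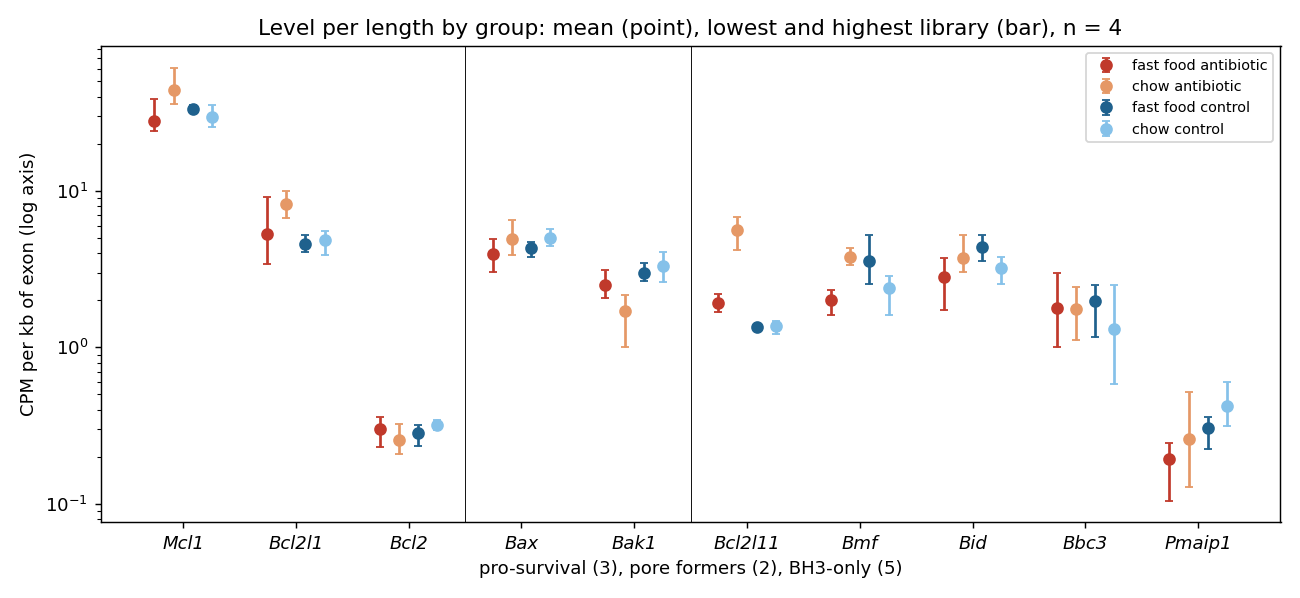
Level per length (CPM per kilobase of exon, log axis) of the 10 members in the 4 groups: the point is the mean and the bar runs from the lowest to the highest library (n = 4). Mcl1 lies above all other members in every group, and Bcl2l11 in chow antibiotic livers (mean 5.64) lies above its own level in the other groups.

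The genes whose profile over the 16 libraries lay nearest that of Bcl2l11 were found by the root mean square difference of centred log2 CPM. The search took the 10425 genes whose mean log2 CPM was 1 or more and whose symbol is not a predicted, clone or microRNA name. The 8 nearest were Klhl2, an adaptor of cullin ubiquitin ligases (0.37), the secreted glutathione peroxidase gene Gpx3 (0.37), Chic2 (0.39), Taf2, a subunit of the general factor TFIID (0.39), the secreted phospholipase gene Pla2g12a (0.41), the carboxypeptidase M gene Cpm (0.41), Rcl1, which acts in ribosomal RNA processing (0.42), and Ankrd33b (0.42). The median gene lay at 0.88, and a flat profile would lie at 0.84. With a prior count of 0.5 in place of 2, 7 of the 8 were again nearest.

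Rcl1 had 123 ± 28.1 CPM in fast food antibiotic, 328 ± 149 CPM in chow antibiotic, 121 ± 11.6 CPM in fast food control and 117 ± 9.34 CPM in chow control livers. Gpx3 had 4.88 ± 1.89, 13.8 ± 2.93, 3.53 ± 0.569 and 3.43 ± 0.687 CPM in the same order of groups. None of the other 9 family members was among the 8, and the closest of them were Bcl2l1 at 0.64 (rank 527) and Mcl1 at 0.69 (rank 928). Bak1 was the farthest at 1.25 (rank 11705, all ranks over the 13180 tested genes). These distances share their libraries, and the genes were picked for the likeness, so no test applies.

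**Figure D4:**
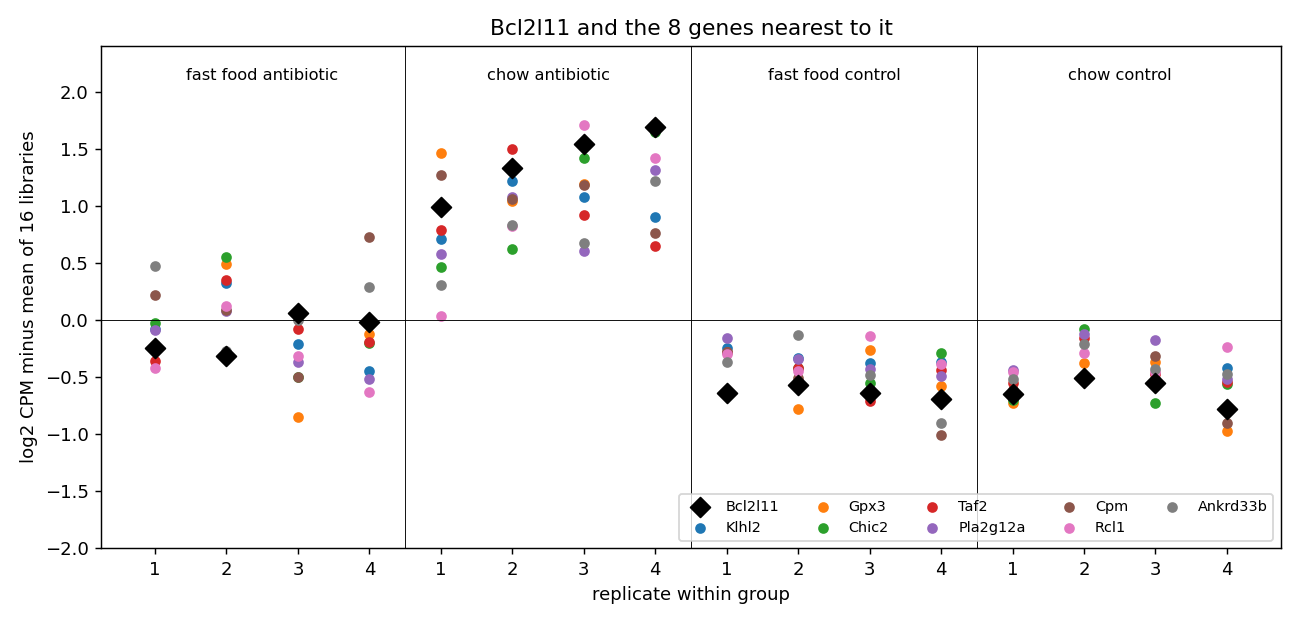
Centred log2 CPM (each gene's log2 CPM minus its mean over 16 libraries) of Bcl2l11 (diamonds) and its 8 nearest genes (coloured points) by library. All 9 genes lie above their own mean in the 4 chow antibiotic libraries, and Bcl2l11 lies below its mean in all 8 control-water libraries.

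In the wider Bcl2 family, 10 of 15 genes passed the filter. Antibiotic water with chow moved 2 of these 10 higher and 3 lower, or 50.0% beside 23.8% of all genes. Bnip3, a mitochondrial BH3 protein that marks mitochondria for removal, rose (1.16 ± 0.17, adjusted p = 0.000208), with 162 ± 33.1 CPM in fast food antibiotic, 311 ± 39.1 CPM in chow antibiotic, 152 ± 24.1 CPM in fast food control and 139 ± 25.4 CPM in chow control livers. Its relative Bnip3l was higher (0.37 ± 0.11, adjusted p = 0.0211), a call lost in 3 of the 16 fits that left out 1 library (highest adjusted p 0.0752, without chow antibiotic replicate 3). Bcl2l13, another mitophagy receptor, fell with chow (-0.54 ± 0.11, adjusted p = 0.00199). The BH3-only gene Bik was lower (-1.09 ± 0.38, adjusted p = 0.0497), a call lost in 14 of those fits. Bcl2l14 was called lower, at 0.136 ± 0.0558 CPM in chow antibiotic and 1.20 ± 0.683 CPM in chow control livers, a few counts per library.

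In antibiotic water, fast food against chow moved 2 of the 10 lower and 2 higher, or 40% beside 13.7% of all genes. Bnip3 fell (-0.94 ± 0.17, adjusted p = 0.00394), and Bnip3l was lower (-0.47 ± 0.11, adjusted p = 0.0132, but 0.0509 without fast food antibiotic replicate 4). The higher calls, Bcl2l13 (0.34 ± 0.11) and Bcl2l14, were lost in 12 and 11 of the 16 fits that left out 1 library. The interaction was called for 3 of the 10, Bcl2l14, Bnip3 (-1.06 ± 0.23, adjusted p = 0.0222) and Bcl2l13 (0.55 ± 0.15, adjusted p = 0.0476, lost in 13 of those fits), or 30.0% beside 3.94% of all genes. That Bnip3 call was lost without fast food antibiotic replicate 4 (adjusted p = 0.0541) and when fast food control replicate 1 was left out. None of the 10 was called for the antibiotic with fast food or for the meal in control water.

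Proteins that bind Bim or govern its turnover were counted as a list of 14 genes, all tested. With chow, antibiotic moved 1 higher and 2 lower, or 21.4% beside 23.8% of all genes. Rps6ka1, which encodes a kinase of the RSK group that primes Bim for degradation, had 4.13 ± 1.18 CPM in fast food antibiotic, 2.1 ± 0.66 CPM in chow antibiotic, 9 ± 1.65 CPM in fast food control and 10.5 ± 2.23 CPM in chow control livers. It fell with antibiotic after chow (-2.26 ± 0.26, adjusted p = 3.64e-05). After fast food it also fell (-1.13 ± 0.24, adjusted p = 0.0198, highest adjusted p 0.061 without fast food control replicate 2). In antibiotic water it was higher after fast food than after chow (0.92 ± 0.27, adjusted p = 0.0325), a call lost in 6 of the 16 fits that left out 1 library. Trim2, a ubiquitin ligase of Bim, fell with chow (-0.88 ± 0.20, adjusted p = 0.00501). Ppp2r2a, a regulatory subunit of the phosphatase PP2A, rose with antibiotic after both meals (0.64 ± 0.17, adjusted p = 0.0137 with chow, and 0.89 ± 0.17, adjusted p = 0.0135 with fast food). The fast food call of Ppp2r2a was lost without fast food control replicate 1 or 3 (highest adjusted p 0.0561).

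Of 17 transcription factors known to act on Bcl2l11, 14 were tested. With chow, antibiotic moved 1 higher and 2 lower, again 21.4%, and the list median was 0.07. Foxo1 had 44.1 ± 10.4 CPM in fast food antibiotic, 47.9 ± 10.7 CPM in chow antibiotic, 24.7 ± 4.11 CPM in fast food control and 29.8 ± 10.8 CPM in chow control livers. It was higher with antibiotic after chow (0.69 ± 0.23, adjusted p = 0.042) and after fast food (0.84 ± 0.23, adjusted p = 0.0468), calls lost in 8 and 11 of the 16 fits that left out 1 library. Cebpa, a hepatocyte transcription factor, fell with chow (-0.66 ± 0.18, adjusted p = 0.0122), and E2f1 was called lower at 0.20 ± 0.074 CPM in chow antibiotic against 0.763 ± 0.401 CPM in chow control livers, a call lost without chow control replicate 3 or chow antibiotic replicate 1 (highest adjusted p 0.0615). Nfya, a subunit of NF-Y, rose with antibiotic after fast food (0.93 ± 0.12, adjusted p = 0.00452). It was higher after fast food than after chow in antibiotic water (0.68 ± 0.12, adjusted p = 0.00428), with an interaction of 1.01 ± 0.18 (adjusted p = 0.00716). The Nfya order was therefore not that of Bcl2l11: 13.2 ± 1.30 CPM in fast food antibiotic, 8.21 ± 0.212 CPM in chow antibiotic, 6.92 ± 0.808 CPM in fast food control and 8.71 ± 0.827 CPM in chow control livers.

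Other FOXO targets went both ways. Of 20 tested, antibiotic with chow moved 4 higher and 2 lower, a share of 30.0% beside 23.8% of all genes, and the list median was 0.24. Igfbp1, the insulin-repressed binding protein of insulin-like growth factors, had 608 ± 623 CPM in fast food antibiotic, 2340 ± 1020 CPM in chow antibiotic, 68.9 ± 39.9 CPM in fast food control and 199 ± 183 CPM in chow control livers. It rose with antibiotic after chow (3.55 ± 0.86, adjusted p = 0.0101). The call after fast food (3.14 ± 0.84, adjusted p = 0.0472) was lost in 14 of the 16 fits that left out 1 library. Sesn1, a stress-induced sestrin, rose with chow (1.91 ± 0.37, adjusted p = 0.00239), as did the insulin receptor substrate gene Irs2 (1.88 ± 0.50, adjusted p = 0.0151) and Trib1 (0.90 ± 0.23, adjusted p = 0.0113). The catalase gene Cat fell (-1.09 ± 0.15, adjusted p = 0.00015). In antibiotic water, fast food against chow moved 2 of the 20 higher and 1 lower, or 15% beside 13.7% of all genes. Cat rose (0.70 ± 0.15, adjusted p = 0.0082), Sesn3 was higher (0.85 ± 0.20, adjusted p = 0.0126, but 0.0506 without fast food antibiotic replicate 4) and Sesn1 lower (-1.49 ± 0.37, adjusted p = 0.0188). The Sesn1 call was lost without fast food antibiotic replicate 3 or 4 (adjusted p = 0.0634). No FOXO target on the list was called for the interaction.

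Of 18 genes of the p53 pathway, which also acts on Bbc3, Pmaip1 and Bax, antibiotic with chow moved 2 higher and 4 lower, or 33.3% beside 23.8% of all genes, with a list median of 0.01. Trp53inp1 rose (2.54 ± 0.57, adjusted p = 0.00624), with 242 ± 235 CPM in fast food antibiotic, 828 ± 244 CPM in chow antibiotic, 107 ± 37.6 CPM in fast food control and 142 ± 56.6 CPM in chow control livers. The antiproliferative gene Btg2 was higher (2.71 ± 0.73, adjusted p = 0.018, highest adjusted p 0.0542 without chow control replicate 3). The targets Perp (-0.74 ± 0.15, adjusted p = 0.00202) and Ei24 (-0.64 ± 0.13, adjusted p = 0.00266) fell, as did Eda2r at low level (0.482 ± 0.272 CPM in chow antibiotic and 1.56 ± 0.335 CPM in chow control livers). With fast food 1 of 18 was called, or 5.56% beside 5.99% of all genes, namely Zmat3 (0.97 ± 0.20, adjusted p = 0.0181, lost in 3 of 16 fits that left out 1 library). In antibiotic water 1 of 18 was called by meal, or 5.56% beside 13.7% of all genes, namely Trp53inp1 (-1.78 ± 0.55, adjusted p = 0.0481, lost in 15 of 16 fits that left out 1 library).

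Downstream of the mitochondria, 1 of 21 genes was called higher and 3 lower with antibiotic after chow, or 19.0% beside 23.8% of all genes. Htra2, a mitochondrial protease that antagonises caspase inhibitors, fell (-0.64 ± 0.15, adjusted p = 0.00583). The caspase inhibitor gene Xiap was lower (-0.49 ± 0.14, adjusted p = 0.0197) and Birc2, of the same family, higher (1.01 ± 0.32, adjusted p = 0.0323), each lost in 3 of 16 fits that left out 1 library. In antibiotic water Xiap was higher after fast food than after chow (0.51 ± 0.14, adjusted p = 0.0289, lost in 4 of those fits). No gene of this list was called with antibiotic after fast food, for the meal in control water or for the interaction.

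In the death receptor pathway 11 of 14 genes were tested, and antibiotic with chow moved 3 of them lower and none higher, or 27.3% called beside 23.8% of all genes. Casp8, the initiator caspase that cleaves Bid, had 33.9 ± 2.89 CPM in fast food antibiotic, 18.1 ± 4.27 CPM in chow antibiotic, 27.1 ± 2.99 CPM in fast food control and 38.4 ± 7.22 CPM in chow control livers. It fell with antibiotic after chow (-1.10 ± 0.16, adjusted p = 0.000213) and was higher after fast food than after chow in antibiotic water (0.92 ± 0.16, adjusted p = 0.00332). Its interaction was 1.42 ± 0.22 (adjusted p = 0.00445), and all 3 Casp8 calls held in every fit that left out 1 library. Tnfsf10, which encodes the death ligand TRAIL, fell with chow (-2.34 ± 0.42, adjusted p = 0.00129) and was higher after fast food than after chow in antibiotic water (1.79 ± 0.43, adjusted p = 0.0151, but 0.0517 without fast food antibiotic replicate 4). The adaptor gene Tradd was lower with chow (-0.72 ± 0.24, adjusted p = 0.0395, lost in 7 of 16 such fits). Cflar, the inhibitor of Casp8, was higher in fast food antibiotic than in chow antibiotic livers (0.46 ± 0.15, adjusted p = 0.045), a call that 15 of 16 such fits lost.

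Where a list had no call in a contrast, its 2 genes of lowest p were looked up, and none of the values in this paragraph passed the threshold. For antibiotic with fast food they were Bcl2l14 and Bad (-0.37 ± 0.19, adjusted p = 0.243) in the wider family, the ubiquitin ligase gene Birc6 (0.36 ± 0.13, adjusted p = 0.0868) and Casp9 (-0.50 ± 0.17, adjusted p = 0.0893) downstream of the mitochondria, and Cflar (0.49 ± 0.15, adjusted p = 0.0551) and Casp8 (0.32 ± 0.15, adjusted p = 0.199) at death receptors. For the meal in control water the lowest adjusted p were those of Eda2r (-1.73 ± 0.39, 0.0528), Bcl2l14 (0.0633), Casp8 (-0.50 ± 0.15, 0.176) and Pdk4 (-1.35 ± 0.41, 0.176). The others there were Aen, Nfya, Vdac1, Dynll1, Mapk8, Mlkl, Diablo, Irs2, Bcl2l13 and E2f1, with adjusted p of 0.284 to 0.459. For the interaction they were Sesn1 (-1.83 ± 0.52, adjusted p = 0.0602) and Cat (0.58 ± 0.21, adjusted p = 0.118), Rps6ka1 (1.13 ± 0.35, adjusted p = 0.0762) and Trim2 (0.67 ± 0.28, adjusted p = 0.181), Eda2r (1.65 ± 0.61, adjusted p = 0.129) and Ei24 (0.47 ± 0.19, adjusted p = 0.163), and Xiap (0.48 ± 0.20, adjusted p = 0.18) and Dffa (0.53 ± 0.24, adjusted p = 0.217).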

How the data were processed

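The authors deposited raw gene counts, with no normalization. Tools listed in the submitters' processing notes, without versions, are STAR and HTSeq, FastQC and cutadapt, edgeR and DESeq2, with the build GRCm38.p6. Reads were single, 50 bases long, from poly(A) libraries per the labels' protocols. Neither the annotation release nor the strand setting is given in the sources used here. Of 25006 identifiers, 24942 matched a symbol in GENCODE M21 (GRCm38).

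Computed here: filterByExpr (minimum count 10), TMM factors and edgeR 4.0.16 quasi-likelihood fits in R 4.3.3 with 4 group means over all 16 libraries (common biological coefficient of variation 0.222). Tests were two-sided, with Benjamini-Hochberg adjustment over all 13180 genes and a threshold of 0.05. Each SE was computed as |log2 fold change| over the root of the F statistic. CPM use TMM-scaled library sizes. Log2 CPM for profiles used a prior count of 2. The script was tested on simulated data.

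The members and lists were chosen with earlier results of these data known. Named genes were all members, up to 5 called genes of lowest p per list and contrast, otherwise up to 2 of lowest p, and the 8 nearest profiles. List members beyond that rule were only counted. Some results that the rule would name are not reported here. Replicate numbers were not taken as pairs: 2 of 16 same-number correlations passed 0.1. The alternatives were DESeq2 1.42.0, RLE factors, 2 other filters, 2-group fits, the replicate block and each library left out. Those chosen after seeing the data left out the 3 acute phase libraries or took the ribosomal RNA-like share into account (split at 1% of counts).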

Additional observations from a re-analysis of the deposited data

Results flagged for a closer look

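In fast food antibiotic livers Mcl1 was 132 CPM in replicate 2 and 82.4 to 87.3 CPM in the other 3 libraries, a gap that makes up most of the group's range. In chow antibiotic livers Bid was 18.5 CPM in replicate 4 and 10.8 to 11.8 CPM in the other 3. Both libraries were also among those marked for high acute phase transcripts, and the part of that in these values was not tested. A total of 40 sets (10 genes in 4 groups) was examined in this way, and chance flags about 1 in 20 sets.

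The antibiotic effect on Bmf differed between the meals, with an interaction of -1.5 ± 0.3 (edgeR adjusted p = 0.0136): -0.84 ± 0.21 with fast food and 0.67 ± 0.21 with chow. With the ribosomal RNA-like share as a covariate the interaction was -1.26 (edgeR adjusted p = 0.0533) and the fast food difference -0.55 (0.392), neither called. The calls with fast food and with chow were each lost in some fits that left out 1 library.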

How the results depend on the processing

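The Bcl2l11 fold changes kept their direction and moved by less than 0.19, the SD within groups on the log2 scale, in all settings run but for the meal difference in antibiotic water among libraries with a high ribosomal RNA-like (rRNA-like) share (-1.74 against -1.54). The difference in control water lay near 0 and its sign carries nothing.

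The count of the other 9 members called depended on the libraries and on the tool, and the cause was not tested. For antibiotic with chow (4 called) it was 1 to 4 over the fits that left out 1 library, lowest without chow control replicate 1 (1) and at 2 without chow control replicate 2, chow control replicate 3 or chow antibiotic replicate 3. In the high rRNA-like share fit it was 0, where 3 genes were called in all against 3138. For antibiotic with fast food (1 called) it was 0 to 2 over those fits, 2 with DESeq2 and without the 3 acute phase libraries, and 0 when the rRNA-like share was a covariate or its split as a term, where 0 of 13180 genes were called against 790 (1573 and 1677 at an unadjusted p under 0.05). It was 0 without fast food control replicate 2 or 3 or fast food antibiotic replicate 1, 2 or 4. For the meal in antibiotic water (2 called) it was 1 to 2 when a library was left out, save 3 without fast food antibiotic replicate 2, 3 without the 3 acute phase libraries (Bcl2l1 added), 3 with the covariate (Bak1 added), 1 in the fit to the 2 groups compared and 0 in the high rRNA-like share fit. It was 1 without fast food antibiotic replicate 1, 3 or 4 or chow antibiotic replicate 4. For the interaction (1 called) it was 1 to 3 over the fits that left out 1 library, 3 without fast food antibiotic replicate 2, 2 with DESeq2, 3 without the 3 acute phase libraries, 0 with the covariate and 2 with the split as a term. For the meal in control water it was 0 in every setting run.

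Fold changes that turned sign were all uncalled, and the largest after the turn was 0.44 ± 0.5 (Bbc3, meal in antibiotic water, high share fit). For antibiotic with chow, Bid was -0.07 without the 3 acute phase libraries and -0.14 in the low share fit, and Bax 0.06 in the high share fit and -0.16 to 0.07 when a library was left out. For antibiotic with fast food, Bcl2l1 was -0.2 without the 3 libraries and -0.19 to 0.38 when 1 was left out. Bbc3 was 0.01 without the 3 libraries, 0.4 with the covariate, 0.37 with the split and -0.51 to 0.03 when 1 was left out. Bcl2 was -0.16 with the covariate, -0.14 with the split and -0.01 to 0.2 when 1 was left out, and Bak1 was 0.06 with the covariate and 0.01 with the split. For the meal in antibiotic water, Bbc3 was 0.09 without the 3 libraries, 0.25 with the covariate, 0.23 with the split, 0.44 in the high share fit and -0.37 to 0.17 when 1 was left out. Pmaip1 was 0.31 without the 3 libraries and -0.49 to 0.1 when 1 was left out. In control water Bcl2l1 was 0.02 with the split. For the interaction Pmaip1 was -0.03 to 0.56 and Bax -0.24 to 0.02 when 1 library was left out.

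The replicate numbers showed little sign of pairing the samples (correlations of -0.22 to 0.19), though correlations this weak cannot exclude a shared batch. With the replicate number as a block, the members called were 3, 1, 2, 0 and 1 in the 5 contrasts, Bcl2l1 alone losing its call for antibiotic with chow (0.77 ± 0.27, adjusted p = 0.0585). Over all genes the counts called moved by over 1.5 times in these settings: DESeq2 called 1547 for antibiotic with fast food, 305 for the meal in control water (76 with edgeR) and 1120 for the interaction (519), the 2-group fit 229 for the meal in antibiotic water (1800) and 365 for that in control water. Without the 3 acute phase libraries the counts were 3206, 160 and 1851 for the meal in antibiotic water, in control water and the interaction. The covariate gave 22 and the split 17 for the meal in control water, and 143 and 262 for the interaction, the low share fit 154 and the high share fit 1 for the meal in control and in antibiotic water. Leaving out 1 library gave 78 (without fast food control replicate 3) to 1102 (without chow antibiotic replicate 4) for antibiotic with fast food, and 697 to 3042, 11 to 155 and 164 to 1494 for the meal in antibiotic water, in control water and the interaction, highest each time without fast food antibiotic replicate 2. Depth limits Pmaip1, at 4 to 24 counts per library, more than any other member.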
